A study of Bos taurus with 40 samples.

Results

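The HOX genes counted in 4 tissues of Korean cattle (Bos taurus) are described here. The members were all gene symbols of the count tables that start with HOXA, HOXB, HOXC or HOXD followed by a digit, which gave 22 of 13570 counted genes. These were 7 HOXA, 6 HOXB, 5 HOXC and 4 HOXD genes. A total of 17 further HOX genes of the 39 in the RefSeq annotation of cattle (assembly ARS-UCD2.0), among them HOXA7, HOXA11, HOXA13, HOXC6 and HOXC8, were not analysed here. RNA was sequenced from liver, abdominal fat, longissimus dorsi muscle (a muscle along the back) and pituitary gland of the same 10 animals, 5 cows and 5 bulls slaughtered at over 22 months of age, with 1 library per animal and tissue. No treatment or genotype beyond the breed and sex was given. The labels do not say at which level of the back or of the abdomen the muscle and fat were cut. The study compared cows with bulls within each tissue (its model M1) and over the 4 tissues (M2). The comparison of tissues uses the tissue term of M2.

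HOX genes code for transcription factors that carry a homeodomain, a DNA-binding domain, and that give cells their identity along the head-to-tail axis of the embryo. Mammals hold them in 4 clusters, HOXA to HOXD, in which genes with the same number are paralogues. Genes with a low number lie at the 3′ end of a cluster and are switched on early and from the hindbrain backwards, while genes with a high number lie at the 5′ end and are used in the rear trunk, the limbs and the urogenital region. This correspondence of gene order and body position is known as colinearity. Adult connective tissue and muscle are known to keep part of the pattern. The front of the head, from which the anterior pituitary arises, lies ahead of the HOX domain. The liver buds from the foregut, the longissimus dorsi comes from the somites of the trunk, and abdominal fat from the trunk mesoderm.

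The libraries held 5173092 to 19165864 reads on genes (median 10005607), and levels are given as CPM, the reads of a gene relative to the library total scaled with TMM factors, which are not divided by gene length. Levels of different genes can therefore not be compared, and sums, shares and ratios over several genes depend on gene length and are compared only between tissues or libraries. The labelled tissues carried their markers. The summed level of 8 pituitary hormone and transcription factor genes was 82844 to 286085 CPM in pituitary and at most 388 CPM elsewhere. The 8 listed muscle genes summed to 119920 to 230796 CPM in muscle, 7 of 8 listed liver genes to 134691 to 308304 CPM in liver and 7 of 8 listed fat genes to 7943 to 27700 CPM in fat. APOB and ADIPOQ were the listed liver and fat genes not counted. A single library went against its label: the liver of bull 3 had 8694 reads of XIST, the RNA that coats the inactive X chromosome, where the cow livers had 4978 to 26977, and 0 reads of the Y-linked genes DDX3Y, USP9Y and ZFY, while the other 3 tissues of this animal had 1 or 2 reads of XIST. It is kept with its label. Leaving it out left the counts of HOX genes called between tissues at 16 for fat over liver, 15 for muscle over liver and 10 for liver over pituitary, the same as with it. Intervals and limits for counts of 0 given here cover counting error only.

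The 4 tissues differed in how many HOX genes were detected, fat and muscle only at 1 of the floors used. A gene was counted as detected in a tissue where at least 5 of the 10 libraries had at least 3 reads of it. By this rule 17 of the 22 members were detected in fat, 13 in muscle, 7 in liver and 0 in pituitary. With a floor of 1 read the counts were 18, 17, 9 and 2, and with 10 reads 12, 12, 6 and 0. The gap between fat and muscle thus rests on the floor of 3 reads. HOXD12 had no read in any of the 40 libraries, and HOXB1 and HOXC12 had 1 read each, both in fat. The summed HOX level was 236 ± 63.3 CPM in fat (SD, n = 10), 204 ± 133 CPM in muscle, 22.7 ± 6.29 CPM in liver and 0.254 ± 0.115 CPM in pituitary. Fat ranged from 153 to 344 CPM, muscle from 83.5 to 480 CPM, liver from 17.2 to 38.8 CPM and pituitary from 0.0631 to 0.412 CPM, so that fat and muscle overlapped each other and neither overlapped liver or pituitary. In bulk tissue, fewer cells that use a gene and less of its RNA per cell cannot be told apart.

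**Figure D1:**
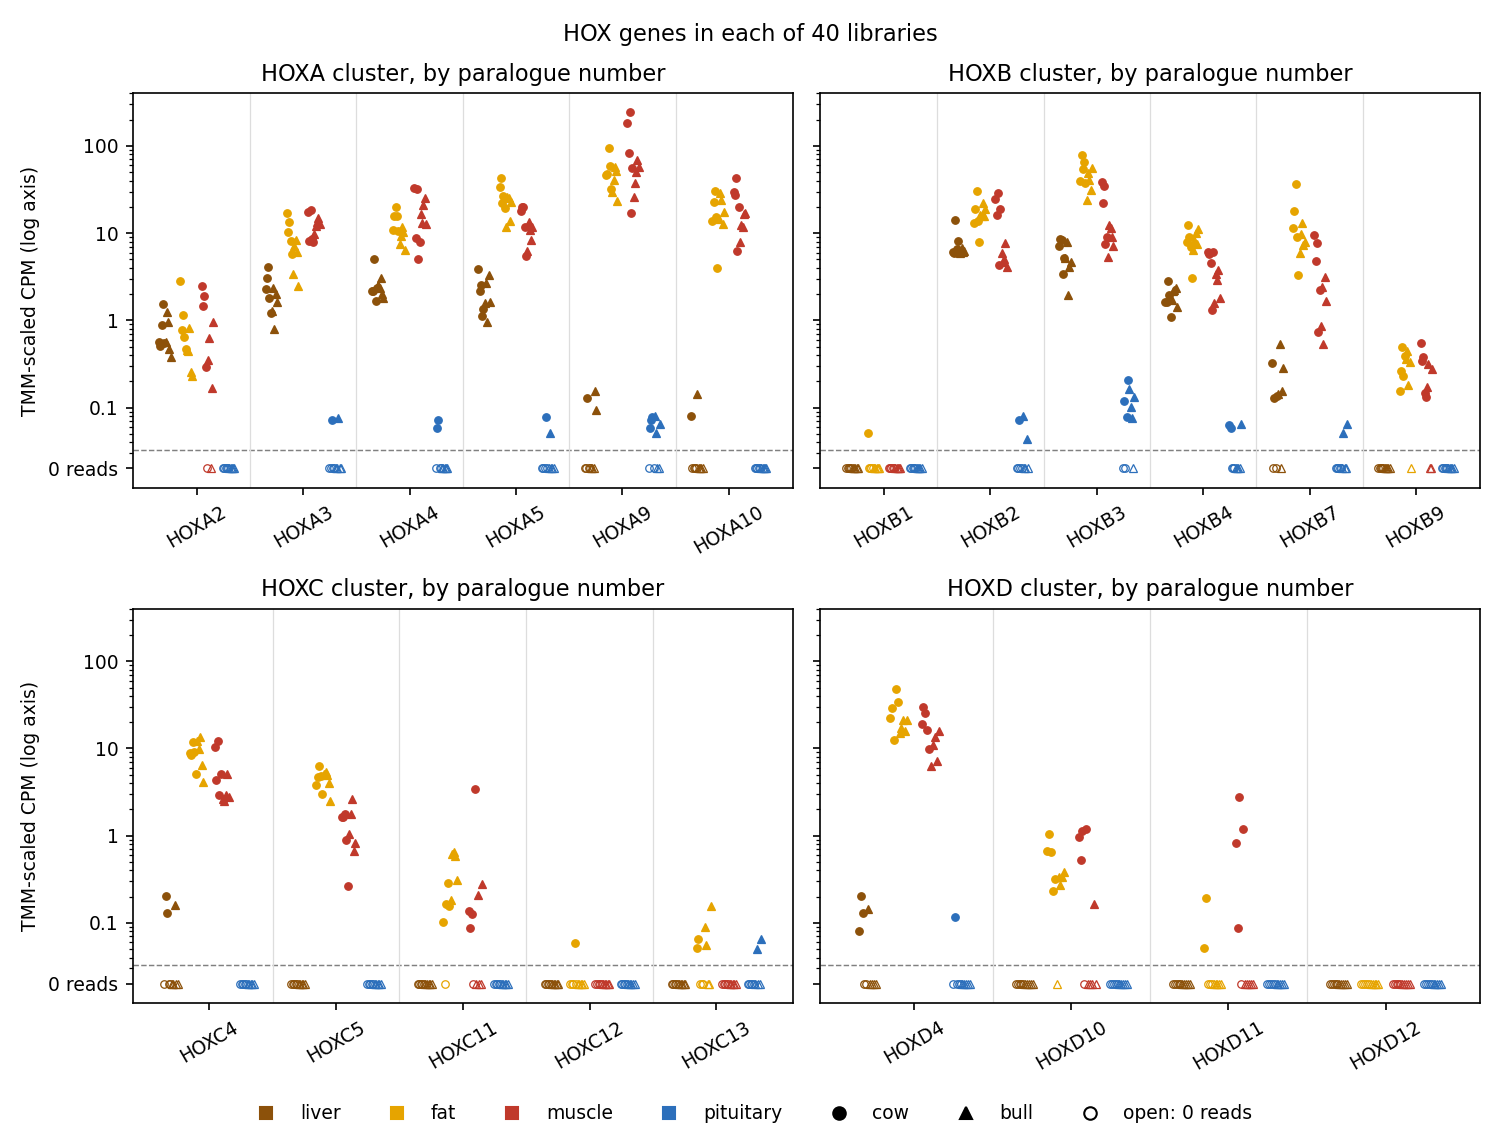
Level of 21 counted HOX genes in each of the 40 libraries (TMM-scaled CPM, log axis), by cluster and in the order of paralogue number. Circles are cows, triangles are bulls, and open symbols below the dashed line are libraries with 0 reads. Liver (brown) has points in HOXA and HOXB genes up to HOXA5 and HOXB4 and only few and low ones beyond, while fat (yellow) and muscle (red) continue to HOXA10, and pituitary (blue) stays near 0 for each gene shown.

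The pituitary, the most anterior of the 4 tissues, held next to no HOX RNA. A pituitary library had 1 to 7 HOX reads in all (median 3.5), and the most reads of a member in a library was 3. A total of 11 members had no read in any of the 10 pituitary libraries, for which 3 reads over the tissue, the limit that a count of 0 allows, correspond to 0.0191 CPM. HOXB3 had the most reads there, 13 over the 10 libraries, with a lowest level of 0, a median of 0.0894 and a highest of 0.205 CPM. HOXA9 followed with 6 reads, at 0.0406 ± 0.036 CPM, which is 0.0841% of its mean in fat. HOXB3 in pituitary was at 0.183%, HOXB2 at 0.114%, HOXB7 at 0.0946% and HOXD4 at 0.0499% of the fat level. HOXA10 and HOXC4 were at 0%. Genes of other tissues were also listed in the pituitary libraries, at shares between those of HOXC4 and HOXD4. ALB, the main plasma protein of liver, was in pituitary at 0.0144% of its liver level. ACTA1, the actin of skeletal muscle, was at 0.0139% of its muscle level, and FABP4, a fatty acid carrier of adipocytes, at 0.023% of its fat level. Whether these few reads come from pituitary cells was not tested.

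Liver used the low-numbered end of the HOXA and HOXB clusters. The detected members were HOXA2, HOXA3, HOXA4, HOXA5, HOXB2, HOXB3 and HOXB4, and each had at least 3 reads in all 10 livers. HOXB2 had a lowest level of 5.91, a median of 6.24 and a highest of 14.2 CPM, and the 5 bulls lay within 5.91 to 6.77 CPM. HOXB3 had a lowest level of 1.93, a median of 5.17 and a highest of 8.47 CPM. HOXA4 ran from 1.68 over a median of 2.25 to 5.12 CPM, and for both HOXA4 and HOXB2 the highest library was that of cow 3. HOXA5, the highest HOXA number detected in liver, had a lowest level of 0.967, a median of 1.87 and a highest of 3.88 CPM, and HOXB4, the highest HOXB number, ran from 1.09 over 1.84 to 2.82 CPM.

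Past HOXA5 and HOXB4, the next counted members of these clusters were HOXA9 and HOXB7, and liver had few reads of them. Genes with numbers in between were not analysed here, so the point where the liver values fall is not resolved. HOXA9 had 4 reads in the 10 livers together and HOXA10 had 2. HOXB7 had 15 reads and reached 3 reads in 3 livers, with a highest level of 0.537 CPM. HOXB9, HOXC5, HOXC11, HOXC13, HOXD10 and HOXD11 had none, where a count of 0 allows up to 0.0346 CPM. No HOXC or HOXD gene was detected, with 4 reads of HOXC4 and 5 reads of HOXD4 in all. HOXA9 in liver was at 0.0784% of its fat level, HOXA10 at 0.122%, HOXD4 at 0.236%, HOXC4 at 0.553% and HOXB7 at 1.40%, whereas HOXB2 was at 41.7% and HOXB3 at 11.8%. PRL, the prolactin gene of the pituitary, was found in liver at 0.0601% of its pituitary level and ACTA1 at 0.0215% of its muscle level. Whether the few reads of high-numbered members come from liver cells was not tested.

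Fat carried the widest set by the detection rule, but with a floor of 10 reads fat and muscle had 12 members each. HOXB9, HOXC11 and HOXD10 were among the members detected in fat and in no other tissue, and 13 members had at least 3 reads in every fat library. HOXA9, a gene of the lower trunk, had a lowest level of 23.1, a median of 47 and a highest of 94.4 CPM. HOXB3, a gene of the hindbrain and neck, had a lowest level of 24.2, a median of 44.5 and a highest of 78.6 CPM in the same libraries. HOXA5 ran from 11.8 over 24 to 42.6 CPM and HOXD4 from 12.6 over 21.1 to 48 CPM. The highest number detected in each cluster was HOXA10, HOXB9, HOXC11 and HOXD10. HOXA10 had a lowest level of 3.94, a median of 16.3 and a highest of 30.1 CPM, the lowest being cow 5, whereas the other 3 were at most 1.04 CPM in every fat library.

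The low members of fat differed in how evenly they were spread. HOXB9 had 40 reads, a median of 0.298 CPM, a highest of 0.492 CPM and 0 reads in bull 5. HOXC11 had 42 reads, 31 of them in bulls, and HOXD10 had 63 reads, 45 of them in cows. HOXC13 was below the detection rule with 6 reads over 5 fat libraries.

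Muscle held 13 members, and by the detection rule the set ended lower than in fat in 3 clusters. The highest number was HOXA10 in the HOXA cluster, HOXB7 in HOXB, HOXC5 in HOXC and HOXD4 in HOXD. The next counted members after HOXC5 and HOXD4 were HOXC11 and HOXD10. HOXB9, HOXC11 and HOXD10 averaged 0.286, 0.304 and 0.424 CPM in fat and 0.232, 0.426 and 0.398 CPM in muscle. None of these passed the test of fat against muscle (adjusted p = 0.807, 0.642 and 0.569, edgeR's quasi-likelihood test). The lower end in muscle thus rests on the count of reads required. HOXA9 had a lowest level of 17 (cow 4), a median of 56.5 and a highest of 244 CPM (cow 3). HOXA10 ran from 6.21 over 16.7 to 42.5 CPM and HOXA4 from 5.02 over 14.9 to 33.4 CPM. Cow 4 was the lowest and cow 3 the highest for HOXA9 and HOXA10, and cow 1 was above the other muscle libraries for HOXA4. HOXD4 had a lowest level of 6.25, a median of 14.6 and a highest of 30.1 CPM.

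Posterior members were present in single muscles without reaching the rule. HOXC11, a gene of the sacral region, was at 3.42 CPM in cow 5 and at most 0.276 CPM in the other 9 muscles. HOXD11, its HOXD paralogue, was at 2.79 CPM in cow 3, 1.18 CPM in cow 5 and 0.828 CPM in cow 1, had 1 read in cow 2, and had 0 reads in cow 4 and the 5 bulls. HOXD10 was at 0.519 to 1.18 CPM in cows 1, 2, 3 and 5, at 0.166 CPM in bull 4 and at 0 in the rest. These values lie in few libraries, and the label of the muscle is the same for all of them.

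Liver reads lay mostly on low paralogue numbers, and fat and muscle also had reads on high ones, most of them of HOXA9. Groups 1 to 3 held 69.5% ± 4.84 (SD, n = 10) of the HOX reads in liver, 31.6% ± 3.52 in fat and 21.1% ± 2.76 in muscle, and these 3 ranges did not overlap, with liver at 61.6 to 75.5%, fat at 28.4 to 40% and muscle at 17 to 25.1%. Groups 9 to 13 held 0.265% ± 0.311 in liver, 28.4% ± 5.54 in fat and 46.3% ± 9.56 in muscle. The muscle range of 28 to 60.8% overlapped the fat range of 21.2 to 36.6% through cow 4, the only muscle library below the highest fat library. HOXA9 alone made up 6822 of the 9588 reads of these groups in fat and 6288 of 7904 in muscle, and 5 members of these groups were detected in fat and 2 in muscle. HOXB9, HOXC11 and HOXD10, which met the detection rule in fat alone, did not pass the test of fat against muscle. Without HOXA9, groups 9 to 13 held 10.2% ± 3.50 in fat (3.54 to 16.1%) and 16.4% ± 4.82 in muscle (9.56 to 26.1%), a share computed after the data were seen. The mean paralogue number weighted by reads was 3.06 ± 0.151 in liver, 5.37 ± 0.333 in fat and 6.27 ± 0.487 in muscle. Shares over several genes depend on gene length, which is the same in each tissue, and they are given as a description without a test. The 17 HOX genes not analysed here enter neither the shares nor the mean paralogue number, and both could differ with them. Pituitary is left out of them, since no library there had more than 7 HOX reads.

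**Figure D2:**
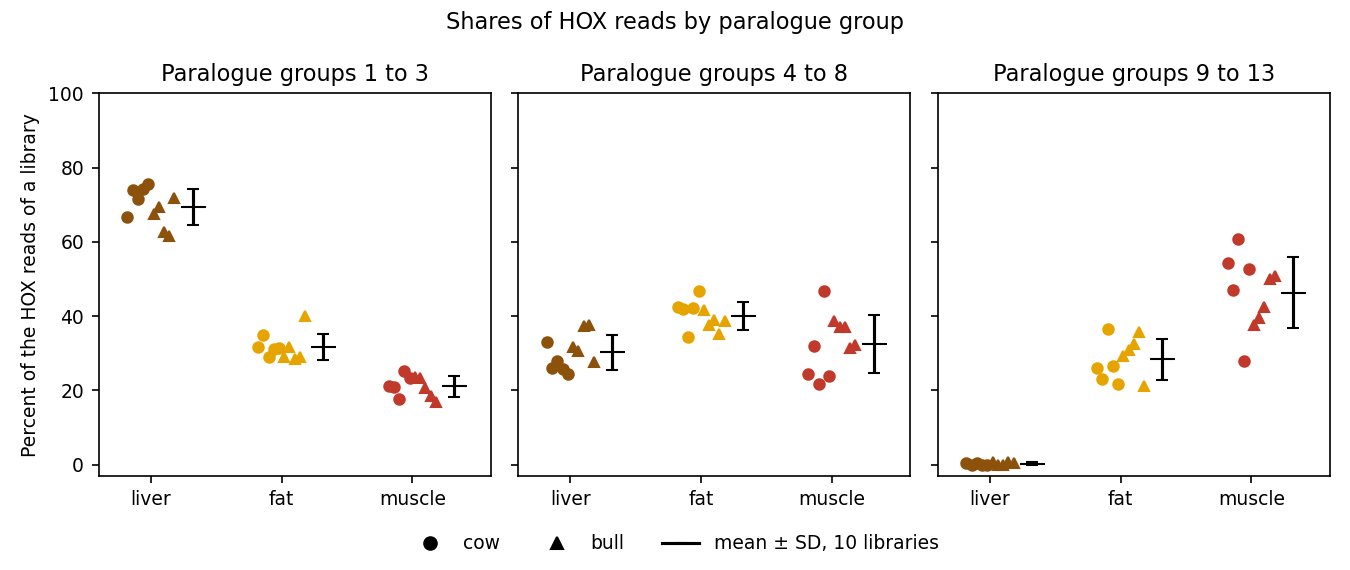
Percent of the HOX reads of each liver, fat and muscle library that fell on paralogue groups 1 to 3, 4 to 8 and 9 to 13. Circles are cows, triangles are bulls, and the bars are the mean ± SD of 10 libraries. Groups 1 to 3 take 69.5% in liver and 21.1% in muscle, and groups 9 to 13 take 0.265% in liver and 46.3% in muscle.

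Reads of the counted members were also spread unequally over the clusters. These shares cover 7 HOXA, 6 HOXB, 5 HOXC and 4 HOXD genes, and they depend on which genes of a cluster were counted. HOXA genes held 33.9% ± 3.52 of the HOX reads in liver, 47.1% ± 5.29 in fat and 70.5% ± 6.55 in muscle. HOXB genes held 65.7% ± 3.52, 36.2% ± 5.25 and 16.8% ± 3.97 in the same order. HOXC genes took 6.05% ± 2.24 in fat and 3.62% ± 0.974 in muscle, and HOXD genes 10.6% ± 4.77 and 9.15% ± 4.51, whereas both were at 0.224% or less in liver. The HOXA share was thus highest in muscle and the HOXB share highest in liver.

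Between fat and liver, 16 of the 21 HOX genes with reads were higher in fat and 0 higher in liver (edgeR's quasi-likelihood test, Benjamini-Hochberg adjusted p under 0.05), where 35.4% of all genes tested were higher in fat and 28.9% in liver. The fat and liver libraries did not overlap for 10 of the members, against 10.7% of all genes. The difference was 1.31 ± 0.29 (log2, SE) for HOXB2 (adjusted p = 0.00016), 2.12 ± 0.283 for HOXB4 (2.72e-08), 3.47 ± 0.264 for HOXA5 (2.13e-14), 6.02 ± 0.573 for HOXB7 (3.7e-13) and 9.76 ± 0.906 for HOXA9 (5.21e-20). These 5 differences are in the order of the paralogue number, which other members did not keep. HOXB3 differed by 3.08 ± 0.287 (8.69e-12), more than HOXB4, and the group 4 genes HOXC4 and HOXD4 differed by 7.34 ± 0.748 (1.48e-14) and 8.47 ± 0.625 (2.25e-21), more than HOXB7. Across the 17 members with a value, Spearman's rho between paralogue number and log2 difference was 0.668, with members without liver reads set to their bound. It is given as a description because the genes share the libraries and neighbouring genes share clusters. HOXC5, with 633 reads in fat and 0 in liver, was at least 129-fold higher in fat, counted against 3 reads over the 10 livers. HOXD10 was at least 12.8-fold, HOXC11 at least 8.55-fold and HOXB9 at least 8.14-fold higher. HOXA10 had 2 reads in liver, and its ratio was 797 (95% counting interval 220.4 to 6585).

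HOXA2, a gene of the hindbrain, did not pass the test. It was at 0.77 ± 0.385 CPM in liver, 0.807 ± 0.764 CPM in fat and 0.826 ± 0.862 CPM in muscle, and its difference of fat minus liver was -0.02 ± 0.486 (log2; adjusted p = 0.98, edgeR's quasi-likelihood test). The call of HOXC13 as higher in fat rests on 6 reads. The median log2 difference of the 21 tested members was 3.08, and 3.10 over 17 members when genes without reads in liver were set to their bound, against 0.13 over all 13148 genes.

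Muscle against liver gave 15 HOX genes higher in muscle and 0 higher in liver, where 34.0% of all genes were higher in muscle and 28.0% in liver. Here 7 members had no overlap between the 10 muscles and the 10 livers, against 14.4% of all genes. HOXB2 was at 12 ± 9.26 CPM in muscle and 7.22 ± 2.55 CPM in liver, a difference of 0.61 ± 0.293 (log2) that missed the threshold (adjusted p = 0.0736, edgeR's quasi-likelihood test). HOXB4 differed by 0.95 ± 0.291, HOXB3 by 1.40 ± 0.291, HOXA5 by 2.52 ± 0.266, HOXB7 by 4.11 ± 0.583 and HOXA9 by 10.44 ± 0.907, all past the threshold. HOXA3 differed by 2.64 ± 0.285 and HOXA4 by 2.82 ± 0.284, and the group 4 genes HOXC4 and HOXD4 by 6.44 ± 0.75 and 7.83 ± 0.626, more than HOXB7, also past the threshold. Spearman's rho with paralogue number was 0.654 over 18 members, again with bounds for members without liver reads. Since this comparison shares the liver libraries with the one before, the 2 are not independent of each other.

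All 3 other tissues exceeded the pituitary. A total of 17 members were higher in fat (31.8% of all genes tested), 18 in muscle (31.5%) and 10 in liver (29.4%), and 0 were higher in pituitary, where 32.8, 32.5 and 35.1% of all genes were higher than in fat, muscle and liver. Libraries did not overlap for 13 members in fat against pituitary, 12 in muscle against pituitary and 7 in liver against pituitary, where 10.5, 13.9 and 14.0% of all genes did not. HOXA10 was at least 966-fold higher in fat and HOXC4 at least 464-fold, both with 0 reads in pituitary. HOXB3 differed from pituitary by 8.98 ± 0.503 (log2, SE) in fat, 7.29 ± 0.505 in muscle and 5.89 ± 0.508 in liver (adjusted p = 2.32e-21, 5.64e-19 and 2.94e-16, edgeR's quasi-likelihood test). HOXA9 differed by 9.95 ± 0.758 in fat and 10.62 ± 0.758 in muscle, but by 0.18 ± 1.14 in liver (adjusted p = 0.878). Spearman's rho of paralogue number with these differences was -0.0346 over 17 members in fat, -0.198 over 18 in muscle and 0.0253 over 9 in liver. Members without pituitary reads entered as bounds, and the others rest on at most 13 pituitary reads. Such differences mostly follow the level of a gene in the other tissue, and levels of different genes cannot be compared. The rho values therefore cannot show whether paralogue number is related to these differences. The call of HOXC4 in liver against pituitary rests on 4 reads.

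Fat and muscle, both of trunk origin, shared the 13 HOX genes detected in muscle, all of which were also detected in fat, and differed in their proportions. A total of 9 members were higher in fat, namely HOXA5, HOXB2, HOXB3, HOXB4, HOXB7, HOXC4, HOXC5, HOXC13 and HOXD4, and 3 were higher in muscle, HOXA3, HOXA4 and HOXD11 (edgeR's quasi-likelihood test). Of all genes tested, 32.8% were higher in fat and 26.8% in muscle, 59.6% in all, so that 12 called of 21 members is near the share of all genes. For none of the 21 did the 10 fat libraries lie apart from the 10 muscle libraries, against 6.81% of genes for fat and 8.97% for muscle.

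The members higher in fat were mostly HOXB and HOXC genes. HOXB3 differed by 1.69 ± 0.282 (log2, SE; adjusted p = 3.13e-06) and was higher in fat in 10 of 10 animals, with a lowest level of 5.38, a median of 10.2 and a highest of 39 CPM in muscle against 24.2, 44.5 and 78.6 CPM in fat. HOXB7 differed by 1.91 ± 0.392 (7.01e-05; 10 of 10 animals), with medians of 9.43 CPM in fat and 2.32 CPM in muscle. HOXC5 differed by 1.76 ± 0.321 (4.34e-05; 10 of 10), with medians of 4.78 and 1.34 CPM, and HOXA5 by 0.95 ± 0.25 (0.00118; 10 of 10), with medians of 24 and 11.9 CPM. Each of these 4 was lower in the muscle than in the fat of every animal, although the ranges over animals overlapped. Smaller differences were found for HOXB4 (1.17 ± 0.277, adjusted p = 0.000401), HOXC4 (0.90 ± 0.32, 0.0171), HOXB2 (0.70 ± 0.289, 0.0388) and HOXD4 (0.64 ± 0.254, 0.0275). HOXC13 was called with 6 reads in fat and 0 in muscle, at least 1.04-fold.

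On the muscle side, HOXA3 differed by -0.67 ± 0.27 (log2 fat minus muscle; adjusted p = 0.0316) and was higher in muscle in 9 of 10 animals, with medians of 12.5 CPM in muscle and 7.63 CPM in fat. HOXA4 lay at the threshold, with -0.61 ± 0.271 (adjusted p = 0.04996; 7 of 10 animals), and was at 0.0907 with the animal as a block. HOXA9 missed it, with -0.67 ± 0.298 (0.0532). HOXD11 differed by -3.61 ± 1.27 (0.00497), with 38 reads in 4 muscles and 4 reads in 2 fat libraries. HOXA10 did not pass it either, at 18.3 ± 8.02 CPM in fat and 19.1 ± 11.3 CPM in muscle, a difference of -0.00 ± 0.309. The direction of HOXA3, HOXA4 and HOXA9 depended on the scaling: with library sizes alone they were at 0.11, 0.11 and 0.05 (log2 fat minus muscle), while the median of all genes moved from 0.13 with TMM factors to 0.86. Relative to that median these 3 remained lower in fat under both scalings. Without the fat library of bull 5, 7 members were higher in fat and 1 in muscle.

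**Figure D3:**
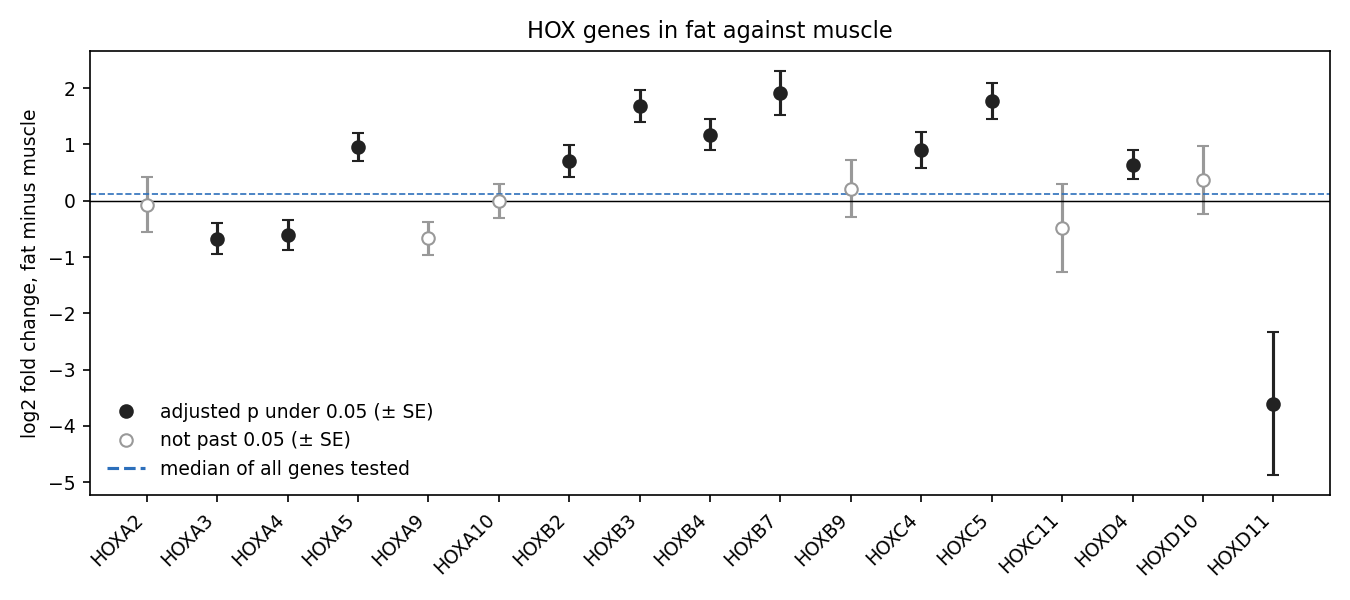
Log2 fold change of fat minus muscle (± SE) for 17 of the 18 HOX genes with a fitted value, by cluster and paralogue number. Filled points are past an adjusted p of 0.05, open points are not, and the dashed line is the median of all genes tested (0.13). The HOXB genes from HOXB2 to HOXB7 and HOXC4, HOXC5 and HOXD4 lie above 0, HOXA3 and HOXA4 below it, and HOXD11 rests on 4 reads in fat.

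Ratios of 2 members in the same library do not depend on its scaling. They were chosen after the values were seen and are given without a test. HOXA9 had a median of 1.94 reads per read of HOXA5 in fat and 4.75 in muscle, higher in muscle in 9 of 10 animals, and 0.0201 in the pooled livers. Against HOXB3, HOXA9 had a median ratio of 1.04 in fat and 4.78 in muscle, higher in muscle in 10 of 10 animals. HOXB7 per read of HOXB2 had a median of 0.60 in fat and 0.283 in muscle, lower in muscle in 10 of 10 animals. HOXA9 per read of HOXA3 was higher in muscle in 4 of 10 animals. HOXA10 per read of HOXA5 had a median of 0.844 in fat and 1.42 in muscle, higher in muscle in 8 of 10 animals. Across the 18 members with a value, Spearman's rho of paralogue number with the log2 difference of fat minus muscle was -0.256, given as a description.

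Between the sexes, muscle was the tissue with HOX calls. In M1, 3 of the 21 members were female biased in muscle, HOXB2, HOXD10 and HOXD11 (edgeR's likelihood ratio test, adjusted p under 0.05), where 0.380% of all genes were female biased, and 0 were male biased, where 0.137% of all genes were. HOXB2 was at 24.4, 16.2, 28.6, 4.29 and 18.8 CPM in the muscle of cows 1 to 5 and at 5.91, 4.72, 5.02, 7.62 and 4.15 CPM in bulls 1 to 5. Cow 4 lay within the range of the bulls, and the other 4 cows lay above it. The log2 difference of bull minus cow was -1.75 ± 0.432 (adjusted p = 0.0233, edgeR's likelihood ratio test).

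HOXD10 had 31 reads in the cows and 1 in the bulls, a ratio of 24.4 (95% counting interval 4.07 to 995; adjusted p = 0.0367), and 0 reads in cow 4. HOXD11 had 38 reads in the cows and 0 in the bulls, at least 9.98-fold higher in cows when counted against 3 reads over the 5 bulls (adjusted p = 0.0233), and again 0 reads in cow 4. Through cow 4 both genes overlapped between the sexes, and 0 members were without overlap, against 1.65% of all genes. RefSeq gives HOXD10 and HOXD11 as overlapping spans, so that their reads may not be separate. The same holds for HOXA3 with HOXA4 and HOXA5, for HOXA5 with HOXA6, for HOXB3 with HOXB4, HOXB5 and HOXB6, for HOXB9 with HOXB8 and for HOXD4 with HOXD3. The handling of reads in overlaps and of strand was not given in the sources used here.

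The 3 calls depended on the test. With the quasi-likelihood test, 0 members passed (adjusted p = 0.244 for HOXB2, 0.296 for HOXD10 and 0.325 for HOXD11). Of all 13148 genes, that test called 2 as female biased and 5 as male biased in muscle. With so few calls, 0 members says little about HOX genes as a set. Leaving out 1 animal at a time gave 0 to 8 calls with the likelihood ratio test, 8 without cow 4 and 0 without cow 1, cow 3 or any of bulls 1, 2, 3 and 5. The count over all genes moved too. With all animals 50 genes were female biased in muscle, and without cow 4 there were 348. Without the animals that gave 0 HOX calls there were 15 to 28. At an unadjusted p under 0.05, 10 of the members differed in muscle, where 11.0% of all genes did, and all 10 were higher in cows. HOXA9 was among them at 117 ± 94.6 CPM in cows and 48.2 ± 16.6 CPM in bulls (n = 5 each; adjusted p = 0.306, edgeR's likelihood ratio test). HOXA3 and HOXA4 had close means, 12.2 ± 5.39 and 12.6 ± 1.85 CPM for HOXA3 and 17.5 ± 14 and 17.8 ± 5.31 CPM for HOXA4 in cows and bulls.

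**Figure D4:**
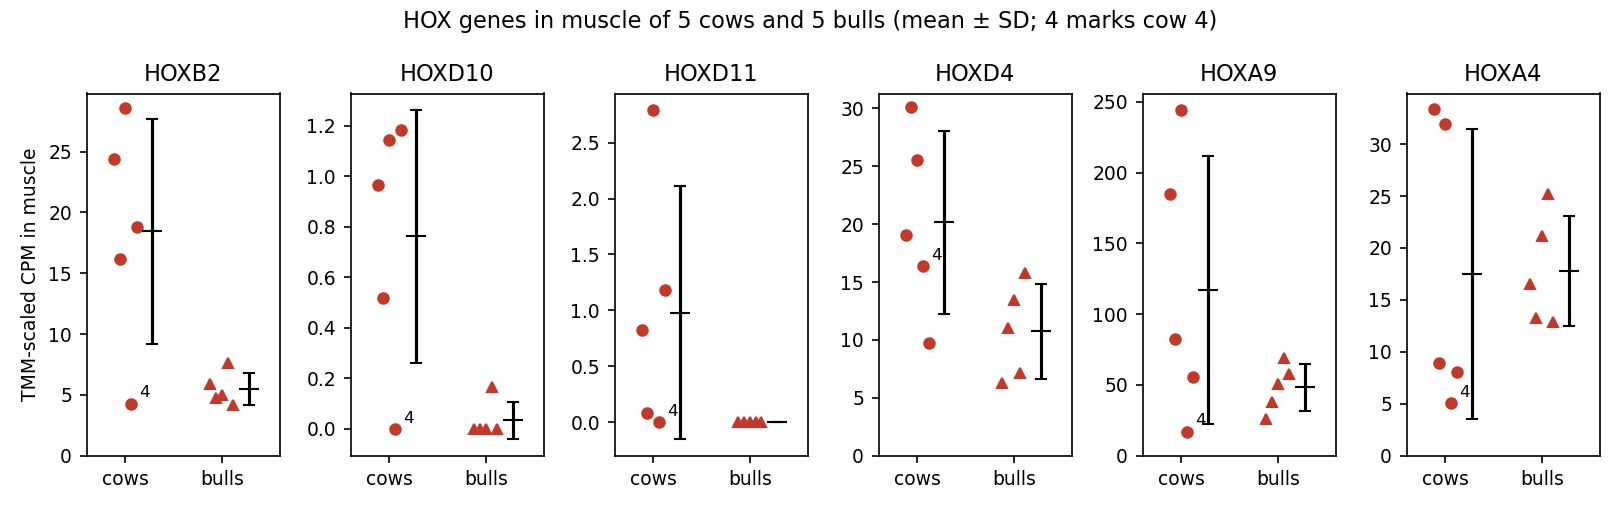
Level of 6 HOX genes in the muscle of 5 cows (circles) and 5 bulls (triangles) in TMM-scaled CPM, with the mean ± SD beside the points and cow 4 marked. For HOXB2, HOXD10 and HOXD11 most cows lie above the bulls and cow 4 does not. For HOXA4 the cows span 5.02 to 33.4 CPM, on both sides of the bulls.

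Markers of other cells and measures of the libraries also varied between the muscles. The summed level of 8 fibroblast markers, all 8 with reads, was 9991, 8245, 4024, 3304 and 4003 CPM in the muscle of cows 1 to 5 and 2784 to 6219 CPM in the bulls, while the summed HOX level was 399, 236, 480, 83.5 and 154 CPM in the cows and 90.8 to 170 CPM in the bulls. Cow 4 was the lowest cow in both sums. The summed level of 8 leukocyte markers was 196, 279.7 and 266 CPM in cows 1 to 3, 105 CPM in cow 4, 107 CPM in cow 5 and 44.4 to 163 CPM in the bulls. Cows 1 to 3, which had the highest HOX sums, were above the bulls in leukocyte markers. The 8 muscle genes summed to 119920, 123147 and 141215 CPM in cows 1 to 3, 206312 CPM in cow 4, 177723 CPM in cow 5 and 163214 to 230796 CPM in the bulls. Reads without a gene name were 0.448 to 0.675% of the library in cows 1, 2, 3 and 5, 2.107% in cow 4 and 0.889 to 2.69% in the bulls, so that this share also divided the sexes apart from cow 4. The part of these measures in the sex difference was not tested.

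The other tissues had no HOX call between the sexes in M1. The smallest adjusted p of a member was 0.884 in liver, 0.435 in fat and 0.603 in pituitary (edgeR's likelihood ratio test), where 0.175, 0.114 and 0.745% of all genes were called in either direction. At an unadjusted p under 0.05, 5 members differed in fat, 0 in liver and 0 in pituitary, where 6.88, 7.45 and 9.27% of all genes did. The quasi-likelihood test called 0 members in each tissue. It called few genes at all: 1 higher in bulls and 0 in cows in liver, 2 and 1 in fat, and 9 and 3 in pituitary. The 5 members in fat included HOXA2, HOXA3 and HOXD11, higher in cows, and HOXC11, higher in bulls. HOXC11 in fat was at 0.143 ± 0.105 CPM in cows and 0.466 ± 0.207 CPM in bulls (adjusted p = 0.614, same likelihood ratio test). The mean was higher in cows for 15 of 18 members with reads in muscle, 15 of 21 in fat, 9 of 13 in liver and 5 of 11 in pituitary, where 56.9, 55.2, 53.8 and 49.1% of all genes were.

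Leaving out the liver library of bull 3 left the count in liver at 0.

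Over the 4 tissues (M2), HOXD4, HOXD10 and HOXD11 were female biased and 0 members were male biased, where 1.35% of all genes were female biased and 0.335% male biased, and 3 were called without the liver library of bull 3 too. M1 and M2 were fitted again here, and their counts of called genes differ from those of the study. HOXD4 differed by -0.85 ± 0.247 (log2 bull minus cow, SE; adjusted p = 0.0372, edgeR's likelihood ratio test), and its means were 29.2 ± 13.2 and 18 ± 2.97 CPM in the fat of cows and bulls and 20.2 ± 7.93 and 10.7 ± 4.06 CPM in their muscle. The study's M2 also called HOXD4. Its qRT-PCR in cattle found no significant sex difference for this gene in liver, muscle, pituitary or over the tissues, and gave no value in fat. In rat, the study's qRT-PCR of this gene was significant in muscle and over the tissues. HOXD10 differed by -1.80 ± 0.596 (adjusted p = 0.040), and HOXD11 had an adjusted p of 0.00724. M2 treats the 4 libraries of an animal as separate. With the animal as a random block (limma voom) no member passed (adjusted p = 0.352, 0.497 and 0.544), and the quasi-likelihood test called 0. Of all 13148 genes, voom called 4 as female and 4 as male biased, and the quasi-likelihood test 56 and 21. Such low counts leave little room for calls in a set of 21 genes. No member had a sex by tissue interaction past the threshold (44 genes, 0.335% of all genes, had one), and 3 had an unadjusted p under 0.05, HOXB2 and HOXC11 among them, where 8.58% of all genes did. A difference of the sex effect between muscle and the other tissues was thus not established for HOXB2 (adjusted p = 0.176, likelihood ratio test of the interaction).

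The lists of other genes that follow were tested in the same fit, and their counts stand beside the shares of all genes tested. Between fat and liver, 35.4% of all genes were higher in fat and 28.9% in liver, between muscle and liver 34.0% and 28.0%, and between fat and muscle 32.8% and 26.8%. Against pituitary, 31.8% were higher in fat and 32.8% lower, 31.5% higher in muscle and 32.5% lower, and 29.4% higher in liver and 35.1% lower. The counts are descriptions, and no list was set apart from other genes by a test. With library sizes alone the median of all genes moved to 0.82 for fat minus liver, 0.86 for fat minus muscle, -0.89 for muscle minus pituitary and -0.92 for liver minus pituitary (log2), and the counts of these lists were not recomputed under that scaling.

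HOX proteins bind DNA together with TALE homeodomain proteins, the PBX, MEIS and PKNOX families. The list used here also held TGIF1 and TGIF2, TALE genes outside these families. Of 10 TALE genes tested (11 listed), 5 were higher in fat than liver and 0 lower, and 4 were higher in fat than muscle and 3 lower. Reads of TALE genes were present in pituitary. MEIS3 was at 49.8 ± 9.07 CPM in pituitary, 38.8 ± 30.9 CPM in fat, 8.06 ± 4.53 CPM in muscle and 2.46 ± 0.85 CPM in liver. PKNOX2 was at 46.5 ± 21.7 CPM in muscle and 9.02 ± 4.22 CPM in fat, the TALE gene with the largest difference between the 2 (-2.36 log2 fat minus muscle, adjusted p = 2.59e-08, edgeR's quasi-likelihood test). PBX3 was higher in fat than muscle by 2.03 (adjusted p = 3.85e-09). Against pituitary, 2 TALE genes were higher and 2 lower in fat, 4 higher and 5 lower in muscle, and 1 higher and 5 lower in liver, and muscle had 5 higher and 3 lower than liver.

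Homeobox genes of the head were present in the pituitary, where HOX genes were not detected. Of 21 tested (27 listed), 13 were higher in pituitary than fat, 13 higher than muscle and 16 higher than liver, with 2, 3 and 2 in the other direction. SIX6, LHX3 and SIX3, factors of the pituitary primordium and the forebrain, were at 163 ± 43.3, 148 ± 36 and 128 ± 64.5 CPM in pituitary and at most 0.215 CPM on average in the other tissues. PITX1, which is also known from limb development, was at 133 ± 43 CPM in pituitary and at 180 ± 93.5 CPM in muscle. In the trunk tissues, 9 of the head list were higher and 3 lower in fat than liver, 8 higher and 4 lower in muscle than liver, and 3 higher and 5 lower in fat than muscle. EMX2, which also acts in the urogenital system, was at 12.8 ± 6.78 CPM in fat and 9.12 ± 6.18 CPM in muscle and at 0.104 ± 0.175 CPM in liver.

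Patterning genes of the limb and body wall were higher in fat than in liver for 11 of 13 and in muscle than in liver for 8 of 13. Of the 13 tested (21 listed), 1 was lower in fat than liver, 2 lower in muscle than liver, and 4 were higher in fat than muscle and 2 lower. Against pituitary, 9, 8 and 5 were higher in fat, muscle and liver and 1, 1 and 4 lower. TBX15, a factor of the body wall and of muscle fibres, was at 161 ± 48.7 CPM in muscle and 8.7 ± 4.14 CPM in fat (-4.20 log2 fat minus muscle, adjusted p = 1.22e-13, edgeR's quasi-likelihood test). PITX1, also in the head list, differed by -5.48 (adjusted p = 9.02e-17). IRX3 was at 42.2 ± 22.3 CPM in fat and 9.4 ± 4.96 CPM in muscle. GATA4, a factor of the foregut and heart, was at 43.9 ± 13.7 CPM in liver, 0.0172 CPM in fat, 0.0297 CPM in muscle and 0 in pituitary. NR2F2, a nuclear receptor, was at 62.7 to 69.9 CPM on average in liver, fat and muscle.

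Polycomb proteins keep HOX genes silent, and trithorax proteins and H3K27 demethylases keep them open. Of 22 Polycomb genes tested (24 listed), 13 were higher in fat than liver and 7 lower, 11 higher in muscle than liver and 3 lower, and 6 higher in fat than muscle and 9 lower. In pituitary, where HOX reads were fewest, 12 were higher than in fat, 7 higher than in muscle and 14 higher than in liver, with 2, 3 and 2 lower. EZH1, a histone methyltransferase, was at 96.7 ± 16.6 CPM in pituitary, 96.6 ± 25.6 CPM in fat, 117 ± 19.6 CPM in muscle and 44.1 ± 13.8 CPM in liver. PHF1, a subunit that helps Polycomb bind chromatin, was at 141 CPM on average in pituitary and 54.5 CPM in liver. PHC3, a Polyhomeotic protein, differed by -3.20 (log2 fat minus muscle, adjusted p = 9.74e-10, edgeR's quasi-likelihood test). Of 7 trithorax and demethylase genes tested (13 listed), 2 were higher in fat than liver and 3 lower, 1 higher in fat than muscle and 4 lower, 4 higher in muscle than liver and 0 lower. ASH1L, a histone methyltransferase, was at 319 ± 76.3 CPM in muscle, 237 ± 86.9 CPM in pituitary, 157 ± 49.7 CPM in liver and 105 ± 73.7 CPM in fat. Pituitary exceeded fat in 4, muscle in 2 and liver in 2 of them, with 1, 1 and 0 in the other direction.

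Retinoic acid switches on the low-numbered HOX genes in the embryo. Of 10 genes of its synthesis, breakdown and reception tested (14 listed), 4 were higher in fat than liver and 4 lower, 4 higher in muscle than liver and 5 lower, and 3 higher in fat than muscle and 1 lower. Against pituitary, 3, 2 and 5 were higher in fat, muscle and liver and 4, 4 and 5 lower. ALDH1A1, a retinaldehyde dehydrogenase, was at 1790 ± 567 CPM in liver, 641 ± 360 CPM in fat and 270.4 ± 94 CPM in muscle, and CYP26A1, which breaks retinoic acid down, was at 7 ± 8.75 CPM in liver against a mean of 0.0469 to 0.154 CPM in the other tissues. RARA, a receptor, was at 105 ± 31.9, 94.7 ± 19 and 47 ± 14.4 CPM in liver, fat and muscle. Of the ParaHOX genes, the sister genes of the HOX clusters, 5 of 6 were tested and 0 differed between fat, muscle and liver, and 1 was higher in fat than pituitary and 1 in liver than pituitary.

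Markers of other cell types also differed between the tissues. All 8 fibroblast markers were higher in fat and all 8 in muscle than in liver, and 6 were higher in fat than muscle and 0 lower. Their sum was 8960 to 47125 CPM in fat, 2784 to 9991 CPM in muscle, 402 to 765 CPM in liver and 589 to 1776 CPM in pituitary. The medians of fat and muscle were 18069 and 4014 CPM, and pituitary exceeded liver in 4 fibroblast markers and liver exceeded it in 0. Fat exceeded pituitary in 8 and muscle in 7 fibroblast markers, with 0 lower. Their part in the HOX levels of the tissues was not tested.

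The sums of the remaining lists set the same tissues apart in other orders. Endothelial markers, 7 of 7 with reads, summed to 1359 to 2607 CPM in fat, 689 to 1062 CPM in muscle, 353 to 873 CPM in liver and 166 to 337 CPM in pituitary. Smooth muscle markers (5 of 5, with DES, which skeletal muscle also uses) were highest in muscle, at 7233 to 17520 CPM, against 395 to 5763 CPM in fat, 166 to 562 CPM in liver and 40.5 to 702 CPM in pituitary. Leukocyte markers (8 of 8) were at 496 to 914 CPM in liver, 233 to 723 CPM in fat, 44.4 to 279.7 CPM in muscle and 49.6 to 155 CPM in pituitary. Mesothelial markers, of which 5 of 8 had reads, were at 149 to 877 CPM in liver and 6.77 to 72.5 CPM in fat, 6.13 to 21.6 CPM in muscle and 99.4 to 590.2 CPM in pituitary, and WT1, LRRN4 and ITLN1 were not counted. The genes left were MSLN, UPK3B and the keratins KRT8, KRT18 and KRT19, so this sum is not a measure of mesothelium alone. Kidney and adrenal markers (5 of 8) were at most 9.29 CPM in fat and 1.74 CPM in muscle, 105 CPM in liver and 5.22 CPM in pituitary.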

How the data were processed

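RNA-seq libraries of 4 tissues from 5 cows and 5 bulls were used, 1 per animal and tissue. Raw read counts per gene symbol were deposited by the authors, who per the labels and methods trimmed reads (Trimmomatic), aligned them to bosTau7 (TopHat2 with Bowtie2) and counted them with HTSeq. HTSeq's strand and overlap settings were not given in the sources used here. A row without a gene name (0.114 to 2.69% of the reads) was left out. Library totals were 5173092 to 19165864 reads.

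Genes with at least 1 read in 1 library (13148) were tested with TMM factors in edgeR 4.0.16 (R 4.3.3): tissues by the quasi-likelihood test on sex and tissue over 40 libraries, cows against bulls by the likelihood ratio test within a tissue (M1) and with sex and tissue (M2), and the sex by tissue interaction. P-values were Benjamini-Hochberg adjusted over all genes (threshold 0.05). A group without reads was set to 3 reads over the group for bounds. Ratios against 1 to 3 reads have exact conditional binomial intervals (95%). Alternatives were RLE factors, library sizes alone (chosen after seeing the data), filterByExpr, other tests, DESeq2 1.42.0, the animal as block (limma 3.58.1), leaving out animals or libraries, and other detection floors. Fits were tested on simulated data. The animals pair the libraries through the labels, although the liver of bull 3 went against its label. Deviations of libraries of 1 animal had a mean correlation of 0.164 (-0.441 to 0.558 over 60 pairs), against -0.0412 between animals.

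Members, lists and tests were chosen with earlier results of these data known. Every HOX symbol is accounted for, and values are given for the highest members of each tissue, the highest detected number of each cluster, members called between the sexes, and the smallest adjusted p of fat against muscle. In the other lists, the most abundant genes and the called gene with the largest change are named, with a few more (EMX2, IRX3) chosen after their values were seen. With 1 piece per animal and tissue, the p-values of M1 measure the spread between animals. The fits of tissue, of M2 and of the interaction hold no term for the animal. Their p-values treat the 4 libraries of an animal as separate. Some genes that enter the counts are not reported here by name.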

Additional observations from a re-analysis of the deposited data

Results flagged for a closer look

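Of 74 groups of 5 libraries of 1 sex and tissue, 5 had 1 library far from the other 4 by Dixon's criterion, which chance gives in about 1 in 20 groups. HOXA4 was at 5.12 CPM in the liver of cow 3, with the next cow at 2.32 CPM, and HOXB2 was at 14.2 CPM in the same liver, with the next at 8.20 CPM. HOXA2 was at 2.83 CPM in the fat of cow 1, with the next cow at 1.15 CPM. HOXC4 was at 5.13 CPM in the muscle of bull 4, with the next bull at 2.91 CPM. HOXD10 was at 0 in the fat of bull 1, with the next bull at 0.275 CPM.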

How the results depend on the processing

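The counts of HOX genes higher in fat or muscle than in liver, and in each of these 3 than in pituitary, stayed within 1.5 times under every alternative run. Leaving out each animal in turn gave 5 to 9 members higher in fat than muscle (5 without bull 1), 1 to 4 higher in muscle (1 without bull 2, 4 or 5), 0 to 8 female biased in muscle, 1 to 6 over the 4 tissues (5 without cow 4, 6 without cow 5, 1 without cow 1, cow 2 or any of bulls 1 to 4) and 0 to 1 with an interaction (HOXB2, without cow 4). Among all genes, leaving out an animal gave 15 to 348 female biased in muscle, the most without cow 4. Over the 4 tissues it gave 40 to 508, the most without cow 5. Members higher in muscle than fat were 1 with library sizes alone, with DESeq2 or without the fat library of bull 5. Members female biased in muscle were 0 with the quasi-likelihood test, 1 with filterByExpr and 1 with DESeq2, where 2, 42 and 62 of all genes were. Over the 4 tissues such members were 0 with the quasi-likelihood test, 0 in voom with the animal as replicate block, 1 with filterByExpr and 1 with DESeq2. In the same order, 56, 4, 201 and 200 of all genes were female biased over the 4 tissues. With the animal as a block, HOXA4 and HOXC13 were lost between fat and muscle (10 of 12 kept) and HOXC13 between fat and liver (adjusted p = 0.0728 and 0.0596, edgeR), and no other call between tissues changed. With library sizes alone, HOXA3, HOXA4 and HOXA9 turned to 0.11, 0.11 and 0.046 (log2 fat minus muscle) and the mean summed HOX level of fat to 303 CPM. At a floor of 1 read, 18 members were detected in fat, 17 in muscle, 9 in liver and 2 in pituitary. At 10 reads these counts were 12, 12, 6 and 0. The causes were not tested. Of the values for named genes, 202 kept their direction and side of the threshold, 65 lost the threshold and 4 gained it. Levels per kilobase were not run, since transcript lengths were not used here. At these depths a gene without reads in a tissue is limited to 0.0191 to 0.0409 CPM over its 10 libraries.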
